A study of Arabidopsis thaliana with 16 samples.

Results

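Sulfate assimilation in Arabidopsis thaliana leaves was followed through 10 genes that were chosen by locus identifier. They are the sulfate transporters SULTR1;2 (AT1G78000) and SULTR4;1 (AT5G13550), the ATP sulfurylases APS1 (AT3G22890) and APS3 (AT4G14680), the APS reductases APR1 (AT4G04610), APR2 (AT1G62180) and APR3 (AT4G21990), the sulfite reductase SIR (AT5G04590), the serine acetyltransferase SERAT2;1 (AT1G55920) and the low-sulfur marker LSU1 (AT3G49580). Each of the 10 genes had 1 probe set of its own on the ATH1 array, where 22810 probe sets name 23616 genes. The APR symbols stand as calendar dates in the deposited annotation, so these genes were found by their identifiers.

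Rosette leaves came from FG and WT plants under SD (8 h light, 16 h dark) or LD (16 h light, 8 h dark), in space (sp) or on the ground (gr), with 2 arrays for each of the 8 groups. WT is the Columbia (Col-0) ecotype, and FG is a homozygous line in the same background that carries transgenes for FLOWERING LOCUS T (FT) and GFP, both driven by the HSP17.4 promoter, which heat switches on. All plants were 20 days old when a 12-day flight on the SJ-10 satellite began, and controls stayed in a matching unit on the ground. Only the SD plants were heated early in the flight, FG and WT alike and in both environments. SD and LD plants also grew in separate root modules under lights of their own. Daylength, heating and module therefore cannot be told apart in SD against LD, and the transgenes of FG under LD had no such heating. Even so, the paper reports more FT transcript in FG than in WT under LD too, in space and on the ground. It also reports slightly earlier bolting of FG under LD. Flight plants shared 1 growth unit, control plants another, and flight leaves were taken after landing, so the environment cannot be told apart from the unit and the handling. The labels number the 2 arrays of a group as repeats, and the methods call them biological replicates. By the methods, the leaves of a treatment came from 2 plants. How these plants were divided over the 2 arrays is not stated, so p-values measure a spread that may be partly technical. The labels and the methods do not give the time of day at which control leaves were taken. They also do not state whether SD and LD leaves were in light or in dark at harvest.

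Plants take up sulfate through SULTR carriers and store it in the vacuole. In the plastid, ATP sulfurylase joins sulfate to ATP, which gives adenosine 5′-phosphosulfate (APS), and APS reductase turns APS into sulfite in the step that is held to set much of the flow through the pathway. Sulfite reductase makes sulfide, and sulfide meets O-acetylserine, the product of serine acetyltransferase, to give cysteine. APS kinase draws APS into a side branch that feeds sulfated compounds such as glucosinolates, and in leaves the reducing branch is known to follow light and the demand for cysteine and glutathione.

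The values are MAS 5.0 signals, an array brightness scaled to the same trimmed mean of 500 on every array, and they are not comparable between genes. Signals under 75 entered the tests as 75, and testing was limited to genes for which 1 group or more had both of its arrays above that floor. To be called, a gene needed a 2-fold difference or more with an adjusted p under 0.05 (limma, Benjamini-Hochberg adjustment over 14286 probe sets). Of the 10 genes 8 passed the filter, and SULTR1;2 and LSU1 did not. Present calls, the MAS 5.0 verdict that a transcript is detected, covered 55.2% to 60.3% of probe sets on the space arrays and 51.7% to 57.3% on the ground arrays. Pairs of arrays differed less in space (SD of 0.28 to 0.40 on the log2 scale) than on the ground (0.55 to 0.74). All 5 leaf markers were present on all 16 arrays, with a summed signal of 51340 to 102948 in space and 10806 to 66060 on the ground. Of 8 root markers 5 had no present call on any array, EXPA7 and CASP1 among them. COBL9 was present on 4 arrays, NRT2.1 on 3 and PYK10 on 5. The root markers summed to 112 to 244 in space and 134 to 477 on the ground. Of 6 flower markers 4 had none, AP1 and AP3 among them, while PI was present on 15 arrays (4.03-fold higher in space in FG under SD, adjusted p = 0.147, limma), and the sums were 88.3 to 609 in space and 102 to 719 on the ground. The gap between 3′ and 5′ control probes of GAPDH, a sign of RNA quality, was 0.08 to 0.61 (log2) in space and 0.52 to 1.12 on the ground. For actin the same gap was larger, 2.14 to 2.49 in space and 2.29 to 2.80 on the ground. Under LD the leaf markers CA1 (16.4-fold in FG and 29.3-fold in WT) and FBA2 (14.5-fold and 15.5-fold in that order) were called higher in space. RCA (4.82-fold) and the companion cell marker SUC2 (5.66-fold) were called higher in WT under LD. No marker was called under SD, and none of 2 guard cell markers tested was called in any setting. The part of these shifts in the results was not tested.

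Under LD, APR2 and SIR, which act in the reducing branch, were called higher in space than on the ground in FG and in WT, and SERAT2;1 was called lower in WT. The other APS reductases, APR1 and APR3, were not called. These are 2 higher and 0 lower of 8 genes in FG, where 9.46% of all probe sets were called higher and 4.49% lower, and 2 higher and 1 lower of 8 in WT, where 10.9% were called higher and 5.79% lower. The median log2 fold change of the 8 genes was 0.76 in FG, against 0.07 over all probe sets tested, and 0.39 in WT, against 0.09. With 1 array left out the median lay between 0.28 (without FG-LD-gr replicate 2) and 0.86 in FG, and between -0.07 (without WT-LD-gr replicate 2) and 1.07 (without WT-LD-gr replicate 1) in WT. Under SD no gene of the 8 was called in FG, where 0.609% of probe sets were called higher and 0.308% lower, or in WT, where the shares were 1.25% and 0.616%. The median of the 8 under SD was -0.35 in FG, against 0.05 over all probe sets, and 0.12 in WT, against 0.11. All these medians include APS3, which was not detected in WT. Without adjustment, p was under 0.05 for 0 of the 8 genes in FG under SD and, in WT under SD, for SIR and for APS3, which was not detected there. Over all probe sets tested, 15.6% had such a p in FG under SD and 19.7% in WT under SD.

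**Figure D1:**
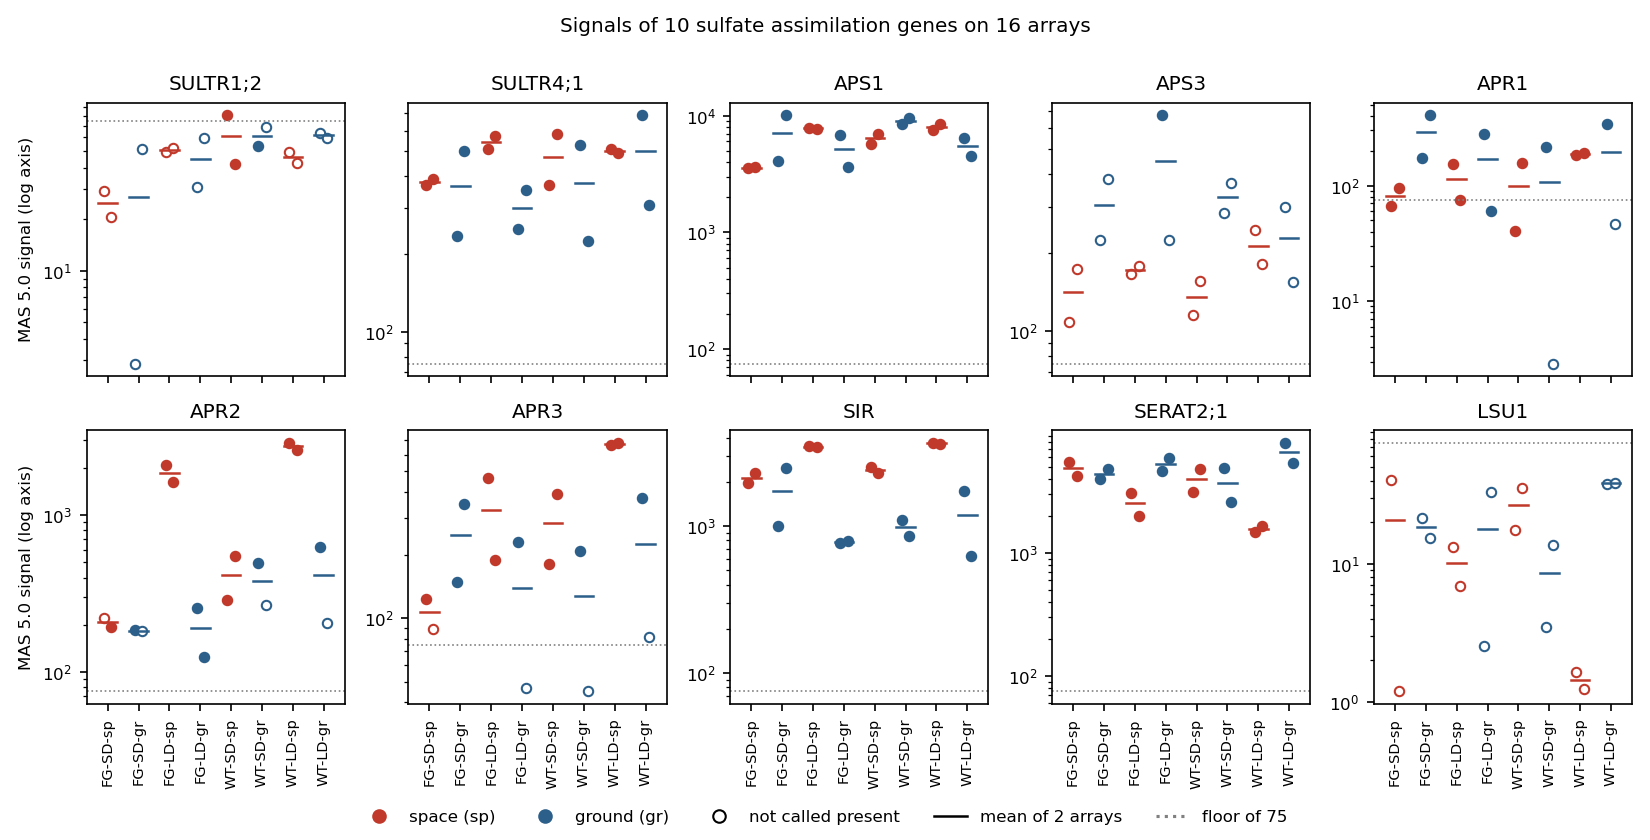
MAS 5.0 signal (log axis, a scale of its own in each panel) of the 10 genes on the 16 arrays, with space in red left of ground in blue for each genotype and daylength. Open circles were not called present, short lines are means of 2 arrays and the dotted line is the floor of 75. The 4 LD arrays from space sit between 1625 and 2890 for APR2 and between 3456 and 3680 for SIR, above the other 12 arrays in both panels.

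APR2, the main APS reductase of leaves, differed most. Under SD its signal was 221 and 193 in FG in space, against 185 and 181 on the ground, and 286 and 545 in WT in space, against 496 and 269 on the ground. Under LD it was 2092 and 1625 in FG in space, against 256 and 124 on the ground. In WT under LD it was 2890 and 2611 in space, against 628 and 204 on the ground. Thus 4 arrays stood apart, those from LD plants in space, of which the lowest had 1625, while the other 12 arrays ranged between 124 and 628 with a median of 239. APR2 rose 10.4-fold in FG (log2 fold change 3.37 ± 0.53 SE, adjusted p = 0.00342) and 7.67-fold in WT (2.94 ± 0.53, adjusted p = 0.0052) under LD. Both calls held whichever of the 16 arrays was left out, with an adjusted p of at most 0.0355 in FG and 0.0424 in WT. The size of the WT difference moved with 1 array, to 2.13 on the log2 scale without WT-LD-gr replicate 2 and 3.75 without WT-LD-gr replicate 1, while the FG value was 2.85 or more. With only the 4 arrays of each comparison in the fit neither was called (adjusted p = 0.057 in FG and 0.087 in WT). The detection of the gene varied as well, since APR2 was present on all 4 LD arrays from space and on 8 of the other 12. In leaf tissue, fewer cells with a transcript and less transcript per cell cannot be told apart.

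SIR, the single sulfite reductase of Arabidopsis, was present on all 16 arrays. Under SD it had signals of 1950 and 2315 in FG in space, against 1002 and 2474 on the ground, and of 2519 and 2296 in WT in space, against 1101 and 861 on the ground. Under LD it had 3502 and 3456 in FG in space, against 763 and 797 on the ground, and 3680 and 3643 in WT in space, against 1733 and 630 on the ground. Space arrays were above ground arrays in 3 of the 4 settings, and in FG under SD the groups overlapped because of replicate 2 on the ground. SIR rose 4.46-fold in FG (log2 2.16 ± 0.46 SE, adjusted p = 0.0129) and 3.51-fold in WT (1.81 ± 0.46, adjusted p = 0.022) under LD. In FG the log2 fold change stayed between 2.13 and 2.19 whichever array was left out, while the adjusted p was 0.0668 without FG-LD-gr replicate 2, 0.074 without FG-LD-sp replicate 1 and 0.0792 without FG-LD-sp replicate 2. In WT the value was 1.08 without WT-LD-gr replicate 2 and 2.54 without WT-LD-gr replicate 1. The adjusted p there was 0.145 without WT-LD-gr replicate 2, 0.0944 without WT-LD-sp replicate 1 and 0.109 without WT-LD-sp replicate 2, and also 0.0598 with no filter on low signals, 0.0628 with each array centred on its median and 0.144 with only the arrays compared. Under SD the values were 0.43 ± 0.46 in FG (adjusted p = 0.724) and 1.3 ± 0.46 in WT (adjusted p = 0.158), and neither passed.

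SERAT2;1, a plastid serine acetyltransferase that makes O-acetylserine, went the other way under LD. Its signal under SD was 5525 and 4215 in FG in space, against 3990 and 4812 on the ground, and 3153 and 4825 in WT in space, against 4889 and 2587 on the ground. Under LD it was 3080 and 1991 in FG in space, against 4670 and 5875 on the ground, and 1478 and 1656 in WT in space, against 7840 and 5376 on the ground. Under SD the arrays of both environments overlapped, and under LD every space array was below every ground array of the same genotype. The gene fell 4.15-fold in WT under LD (log2 -2.05 ± 0.36 SE, adjusted p = 0.00466), also whichever array was left out (adjusted p of at most 0.0356), and was not called with only the 4 arrays compared (adjusted p = 0.0527) or by an unadjusted Student's test for each gene, the methods' rule described with the processing. In FG under LD the value was -1.08 ± 0.36 (adjusted p = 0.0675). That value passed without WT-SD-gr replicate 1 or without WT-SD-gr replicate 2 (adjusted p = 0.0397 each), arrays that bear on the spread and not on the difference.

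**Figure D2:**
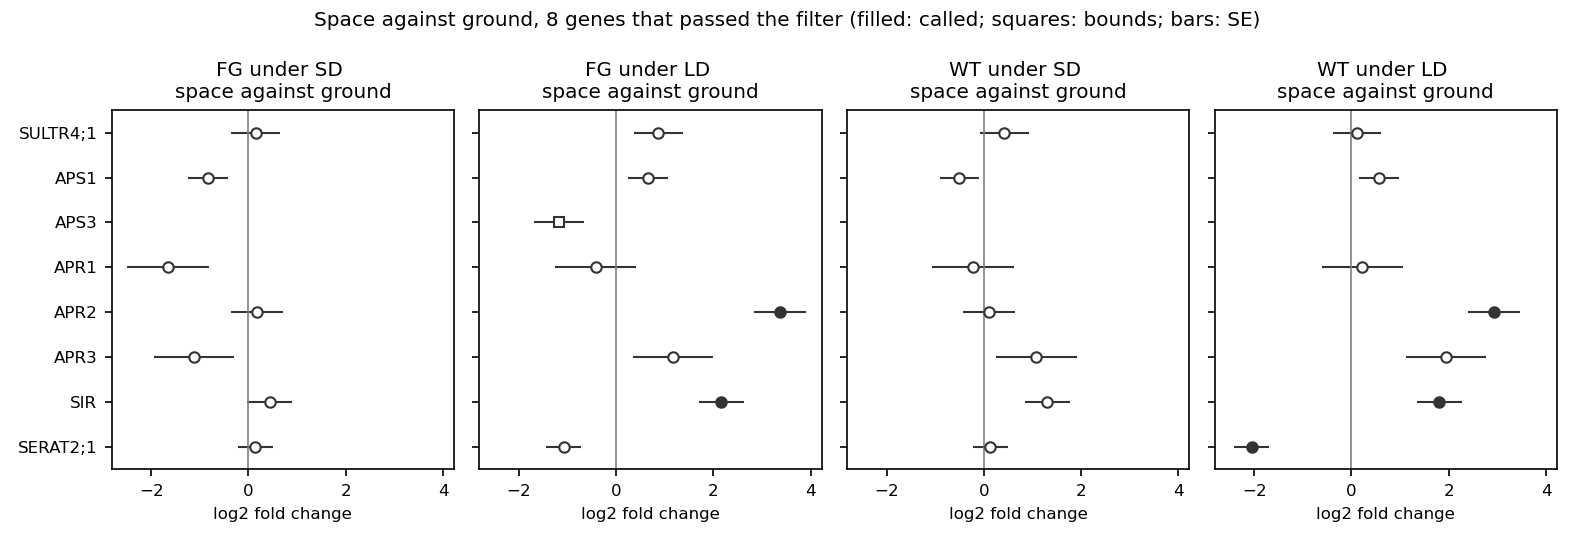
Log2 fold change of space against ground for the 8 genes that passed the filter, in FG and WT under SD and LD. Points are estimates (squares for bounds), bars are SE, filled points were called and no point stands where both groups were below detection. Under LD, APR2 lies at 3.37 in FG and 2.94 in WT and SIR at 2.16 in FG and 1.81 in WT, while under SD no point is filled.

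The other APS reductases were dimmer and noisier. APR3 had 124 and 90 in FG-SD-sp, against 150 and 349 in FG-SD-gr, and 181 and 389 in WT-SD-sp, against 209 and 45 in WT-SD-gr. Under LD it had 462 and 190 in FG-LD-sp, against 232 and 47 in FG-LD-gr, and 664 and 681 in WT-LD-sp, against 372 and 82 in WT-LD-gr. Only in WT under LD did all space arrays exceed all ground arrays for this gene, and the log2 fold change there was 1.95 ± 0.83 SE (adjusted p = 0.123). It passed without WT-LD-gr replicate 1 (3.04, adjusted p = 0.0449). In the other settings APR3 had log2 fold changes of 1.17 ± 0.83 (FG under LD), -1.12 ± 0.83 (FG under SD) and 1.08 ± 0.83 (WT under SD), none of which passed.

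APR1 had 67 and 94 in FG-SD-sp, against 174 and 406 in FG-SD-gr, and 40 and 157 in WT-SD-sp, against 214 and 2.87 in WT-SD-gr. Under LD it had 154 and 75.4 in FG-LD-sp, against 278 and 60 in FG-LD-gr, and 183 and 190 in WT-LD-sp, against 342 and 46 in WT-LD-gr. On the ground the 2 arrays of a group were far apart in every setting, and 5 of the 16 arrays were under the floor. The log2 fold changes were -1.66 ± 0.84 SE (FG, SD), -0.42 ± 0.84 (FG, LD), -0.22 ± 0.84 (WT, SD) and 0.22 ± 0.84 (WT, LD), and none was called. The sign in WT changed with the scaling or the floor, under SD and under LD. Of the 3 APS reductases APR2 alone was called, and APR1 and APR2 correlated with r = 0.20 over the 16 arrays, APR2 and APR3 with r = 0.77, as a description of arrays that share groups.

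ATP sulfurylase, the entry step, showed no called difference among the members. APS1 was bright and present on every array, with 3551 and 3608 in FG-SD-sp, against 4056 and 10054 in FG-SD-gr, and 5726 and 6986 in WT-SD-sp, against 8494 and 9492 in WT-SD-gr. Under LD it had 7841 and 7695 in FG-LD-sp, against 6750 and 3604 in FG-LD-gr, and 7497 and 8453 in WT-LD-sp, against 6427 and 4496 in WT-LD-gr. The space arrays were below the ground arrays under SD and above them under LD, in both genotypes, with log2 fold changes of -0.84 ± 0.40 SE (FG) and -0.51 ± 0.40 (WT) under SD and of 0.66 ± 0.40 (FG) and 0.57 ± 0.40 (WT) under LD. None passed (adjusted p = 0.299 or more), and the value in WT under SD was 0.10 when arrays were scaled to their spike-in controls. APS3 was called present on 1 array of 16, FG-LD-gr replicate 1, with a signal of 674. Elsewhere its signals ranged between 109 and 385 without a present call, so apart from FG under LD no fold is given. There the estimate was 2.26-fold lower in space, and it was not called (adjusted p = 0.143). FG-LD-gr replicate 2 had no present call either, so this estimate is not a strict bound. The estimate rested on FG-LD-gr replicate 1, without which the log2 value was -0.38.

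SULTR4;1, a tonoplast carrier that releases sulfate from the vacuole, was present on all arrays at signals between 225 and 688. In FG it had 368 and 391 under SD in space, against 235 and 500 on the ground, and 509 and 572 under LD in space, against 249 and 352 on the ground. In WT it had 369 and 580 under SD in space, against 528 and 225 on the ground, and 510 and 491 under LD in space, against 688 and 308 on the ground. FG under LD was the setting in which the arrays did not overlap, with a log2 fold change of 0.87 ± 0.50 SE (adjusted p = 0.264). The other values were 0.14 ± 0.50 (FG under SD), 0.42 ± 0.50 (WT under SD) and 0.12 ± 0.50 (WT under LD). SULTR1;2, the main uptake carrier of roots, had signals between 2.87 and 80.9 and 3 present calls, and 15 of its 16 arrays were under the floor. LSU1, a small protein induced when sulfur is short, had signals between 1.19 and 40.4 and no present call. Neither carries a fold change.

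In space, APR2 alone of the 8 genes was called for SD against LD. Under SD it fell 8.92-fold in FG (log2 -3.16 ± 0.53 SE, adjusted p = 0.00869) and 6.96-fold in WT (-2.80 ± 0.53, adjusted p = 0.0191) compared with LD. Among all probe sets, 1.06% were called higher and 3.09% lower in FG, and 0.588% higher and 2.19% lower in WT. The call in FG was lost without FG-LD-sp replicate 1 (adjusted p = 0.0706), FG-LD-sp replicate 2 (0.0626) or FG-SD-sp replicate 1 (0.0593). The call in WT was lost without any 1 of its arrays, with an adjusted p of 0.11 without WT-LD-sp replicate 1, 0.141 without WT-LD-sp replicate 2, 0.176 without WT-SD-sp replicate 1 and 0.0627 without WT-SD-sp replicate 2. SERAT2;1 was at 0.96 ± 0.36 in FG (adjusted p = 0.158) and 1.32 ± 0.36 in WT (adjusted p = 0.0898), and APS1 at -1.12 ± 0.40 in FG (adjusted p = 0.142).

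On the ground, SD against LD gave 0 called genes of 8 in either genotype, with 0% of all probe sets called in FG and 0.021% in WT. Without adjustment, p was under 0.05 for 0 genes in FG and for SERAT2;1 in WT (log2 -0.87 ± 0.36, adjusted p = 0.722). Over all probe sets tested, 7.21% had such a p in FG and 6.43% in WT. APR2 on the ground stood at 0.04 ± 0.53 in FG and 0.03 ± 0.53 in WT.

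The difference between the space responses under SD and LD was then tested as an interaction. For APR2 the response under SD minus that under LD was -3.20 ± 0.76 on the log2 scale in FG (adjusted p = 0.0879) and -2.83 ± 0.76 in WT (adjusted p = 0.141), and neither passed the threshold. It passed in FG without WT-LD-gr replicate 1 or without WT-LD-gr replicate 2 (adjusted p = 0.048 each) and in WT without WT-LD-gr replicate 1 (-3.64, adjusted p = 0.0493). For SERAT2;1 the difference was 1.22 ± 0.51 in FG (adjusted p = 0.292) and 2.19 ± 0.51 in WT (adjusted p = 0.0953), and in WT it passed without WT-SD-gr replicate 1 (2.65, adjusted p = 0.033). For SIR it was -1.73 ± 0.66 in FG (adjusted p = 0.247) and -0.51 ± 0.66 in WT (adjusted p = 0.828). None of the 8 genes was called, with 0.84% of all probe sets called in FG and 0.672% in WT. Without adjustment, p was under 0.05 for APS1, APR2, SIR and SERAT2;1 in FG and for APR2 and SERAT2;1 in WT. Over all probe sets tested, 15.1% had such a p in FG and 12.4% in WT.

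**Figure D3:**
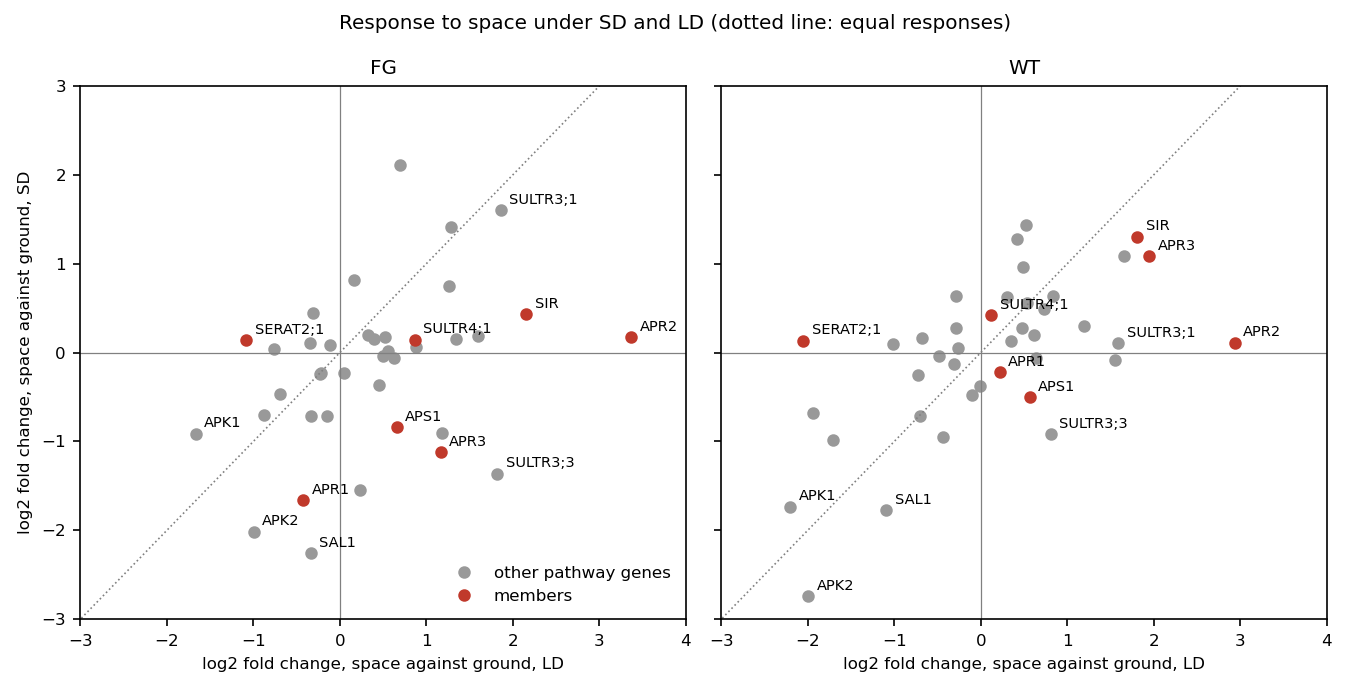
Log2 fold change of space against ground under SD (vertical axis) and under LD (horizontal axis) for members in red and other sulfur pathway genes in gray, in FG and in WT, without genes below detection in both groups of a comparison. On the dotted line both responses are equal. APR2 lies far right of the line, at 0.17 under SD and 3.37 under LD in FG and at 0.11 and 2.94 in WT, and SULTR3;3 lies below 0 under SD and above 0 under LD in both panels.

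FG against WT gave 0 called genes of 8 in all 4 settings, with 0.007% of probe sets called under LD in space, 0.028% under LD on the ground, 0.014% under SD in space and 0.014% under SD on the ground. No member had an unadjusted p under 0.05 in any of them. Over all probe sets tested, the share with such a p was 4.88% under LD in space and 8.15% under LD on the ground. Under SD it was 2.74% in space and 10% on the ground. APR2 was lower in FG in each setting by estimate, with log2 fold changes of -0.93 ± 0.53 SE under SD in space, -0.996 ± 0.53 under SD on the ground, -0.58 ± 0.53 under LD in space and -1.01 ± 0.53 under LD on the ground, and none passed (adjusted p = 0.565 or more). None of the 8 genes was called for a difference between the space responses of FG and WT, either under SD, where 0% of probe sets were called, or under LD, where 0.035% were. For APR2 under LD that difference was 0.43 ± 0.76, for SIR 0.35 ± 0.66 and for SERAT2;1 0.97 ± 0.51 (adjusted p = 0.961 or more).

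The rest of the pathway was read from a list of 47 further genes, of which 45 were found on 44 probe sets and 35 probe sets passed the filter. Of these, in FG 1 was called higher and 1 lower under SD, where 0.609% and 0.308% of all probe sets were, and 5 higher and 1 lower under LD, where 9.46% and 4.49% were. In WT it was 0 higher and 3 lower under SD, where 1.25% and 0.616% of all probe sets were, and 2 higher and 4 lower under LD, where 10.9% and 5.79% were. The median over the 35 was 0.00 on the log2 scale in FG under SD, against 0.05 over all probe sets, 0.25 in FG under LD, against 0.07, 0.05 in WT under SD, against 0.11, and -0.01 in WT under LD, against 0.09. The genes called higher were SULTR2;2, SULTR3;1, SULTR3;3, APS2 and OASC, and those called lower were APK1, APK2, SAL1 and LSU4. With only the 4 arrays of each comparison in the fit, 2 of these 17 calls held, those of APS2 and APK1 in FG under LD. The methods' rule ended 8 of the 17, those of SULTR3;1 and SULTR2;2 in FG under LD, of SULTR3;1, APK1, APK2 and LSU4 in WT under LD, of APK2 in WT under SD and of SAL1 in FG under SD.

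Of the 4 APS kinases, which pass APS to the sulfated side branch, APK1 and APK2 were called. APK1 fell under LD in FG (log2 -1.67 ± 0.31 SE, adjusted p = 0.00756). It also fell in WT, under SD (-1.73 ± 0.31, adjusted p = 0.0324) and under LD (-2.20 ± 0.31, adjusted p = 0.00157), and stood at -0.91 ± 0.31 in FG under SD (adjusted p = 0.192). Its signals under LD were 416 and 452 in FG in space, against 1340 and 1413 on the ground, and 709 and 407 in WT in space, against 3146 and 1948 on the ground, with no overlap. The FG call was lost without FG-LD-gr replicate 2 (adjusted p = 0.0511) or FG-LD-sp replicate 1 (0.056), and the WT call under LD held without any 1 array and was lost under the methods' rule (-2.19). The WT call for APK1 under SD was lost without WT-SD-gr replicate 1 (adjusted p = 0.0587), WT-SD-sp replicate 1 (0.192) or WT-SD-sp replicate 2 (0.164), and without FG-LD-sp replicate 1 or replicate 2 (0.0613 each).

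APK2 fell in WT under SD (-2.74 ± 0.44, adjusted p = 0.0194) and under LD (-1.99 ± 0.44, adjusted p = 0.0113), with signals of 204 and 183 in WT-SD-sp, against 830 and 2006 in WT-SD-gr, and of 447 and 348 in WT-LD-sp, against 1167 and 2114 in WT-LD-gr. In FG it stood at -2.01 ± 0.44 under SD (adjusted p = 0.0598) and -0.996 ± 0.44 under LD (adjusted p = 0.146). Without WT-SD-gr replicate 1 the value in WT under SD was -3.38 and without WT-SD-gr replicate 2 it was -2.10. The WT calls for APK2 were lost under SD without WT-SD-sp replicate 1 (adjusted p = 0.192) or replicate 2 (0.124), and under LD without WT-LD-gr replicate 2 (0.0828) or WT-LD-sp replicate 2 (0.0892). SAL1, a phosphatase that clears the by-product of sulfation, fell in FG under SD (-2.26 ± 0.30, adjusted p = 0.0111), in WT under SD (-1.77 ± 0.30, adjusted p = 0.024) and in WT under LD (-1.09 ± 0.30, adjusted p = 0.0283), and stood at -0.34 ± 0.30 in FG under LD (adjusted p = 0.48, and 0.13 with spike-in scaling). The SAL1 call in WT under LD was lost without any 1 of its 4 arrays, with an adjusted p between 0.0642 and 0.165, and under spike-in scaling (-0.45). Under SD the SAL1 call was lost in FG without FG-SD-sp replicate 1 (0.0684) and in WT without WT-SD-sp replicate 1 (0.192) or replicate 2 (0.156). The kinases APK3 and APK4 had no call in any of the 4 settings.

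Among the carriers, SULTR3;1, which moves sulfate into the plastid, rose in FG under SD (1.61 ± 0.31, adjusted p = 0.0421), in FG under LD (1.86 ± 0.31, adjusted p = 0.00456) and in WT under LD (1.59 ± 0.31, adjusted p = 0.00711). Its signals were 535 and 575 in FG-SD-sp, against 153 and 217 in FG-SD-gr, 725 and 496 in FG-LD-sp, against 139 and 196 in FG-LD-gr, and 1079 and 616 in WT-LD-sp, against 268 and 274 in WT-LD-gr. In WT under SD the arrays were close, with 238 and 272 in space, against 224 and 248 on the ground (0.11 ± 0.31, adjusted p = 0.903). In space SULTR3;1 was lower under SD than under LD in WT (-1.68 ± 0.31, adjusted p = 0.0169). The SULTR3;1 call in FG under SD was lost without any 1 of 10 arrays, its own 4 among them, with an adjusted p of at most 0.231, and under 8 of 11 other settings. The SULTR3;1 call in WT under LD was lost without WT-LD-sp replicate 1 (0.0549), and that of SD against LD without WT-LD-sp replicate 1 (0.11), WT-SD-sp replicate 1 (0.143) or WT-SD-sp replicate 2 (0.105).

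SULTR3;3, of the same carrier family, rose in FG under LD (1.82 ± 0.38, adjusted p = 0.0121), with 3386 and 2878 in FG-LD-sp, against 1098 and 711 in FG-LD-gr. Under SD it had 486 and 877 in FG-SD-sp, against 2123 and 1331 in FG-SD-gr (-1.36 ± 0.38, adjusted p = 0.124). In FG in space SULTR3;3 was 4.78-fold lower under SD than under LD (-2.26 ± 0.38, adjusted p = 0.00904). The rise in FG under LD was lost without FG-LD-gr replicate 2 (adjusted p = 0.095), FG-LD-sp replicate 1 (0.0803) or FG-LD-sp replicate 2 (0.063), and the difference in space without FG-LD-sp replicate 1 (0.0706), FG-LD-sp replicate 2 (0.0643) or FG-SD-sp replicate 1 (0.0914). In WT SULTR3;3 stood at -0.92 ± 0.38 under SD (adjusted p = 0.218) and 0.81 ± 0.38 under LD (adjusted p = 0.164). SULTR2;2, a vascular carrier, had no present call above the floor on the ground in FG under LD and was at least 2.43-fold higher in space (adjusted p = 0.0318), a call lost without any 1 of 6 arrays (adjusted p between 0.0505 and 0.17) and under 7 of 11 other settings.

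APS2, another ATP sulfurylase, rose under LD in FG (1.59 ± 0.34, adjusted p = 0.0125) and in WT (1.66 ± 0.34, adjusted p = 0.0085). Its signals were 1068 and 1261 in FG-LD-sp, against 371 and 399 in FG-LD-gr, and 1310 and 1563 in WT-LD-sp, against 496 and 414 in WT-LD-gr. The APS2 call in FG was lost without FG-LD-gr replicate 2 (0.0618), FG-LD-sp replicate 1 (0.0572) or FG-LD-sp replicate 2 (0.0915), and that in WT without WT-LD-gr replicate 2 (0.0544) or WT-LD-sp replicate 2 (0.0703). OASC, a mitochondrial enzyme that joins sulfide to O-acetylserine, rose in FG under LD (1.34 ± 0.36, adjusted p = 0.0301), and the call was lost without FG-LD-gr replicate 2 (0.195), FG-LD-sp replicate 1 (0.13) or FG-LD-sp replicate 2 (0.127). The other 6 tested genes that the list groups with the cysteine synthases gave no call in the 4 comparisons. The 3 further serine acetyltransferases, the glutathione genes GSH1 and GSH2, the 4 probe sets of methionine synthesis and the regulators SLIM1 and HY5 gave none either. LSU4, of the same family as LSU1, was at least 3.85-fold lower in space in WT under LD (adjusted p = 0.0184), with no present call in space, against 189 and 442 on the ground. That call was lost without WT-LD-gr replicate 2 (log2 -1.33, 0.129), WT-LD-sp replicate 1 (0.0844) or WT-LD-sp replicate 2 (0.0992). The low-sulfur markers LSU2, SDI2 and SHM7 were not called.

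**Figure D4:**
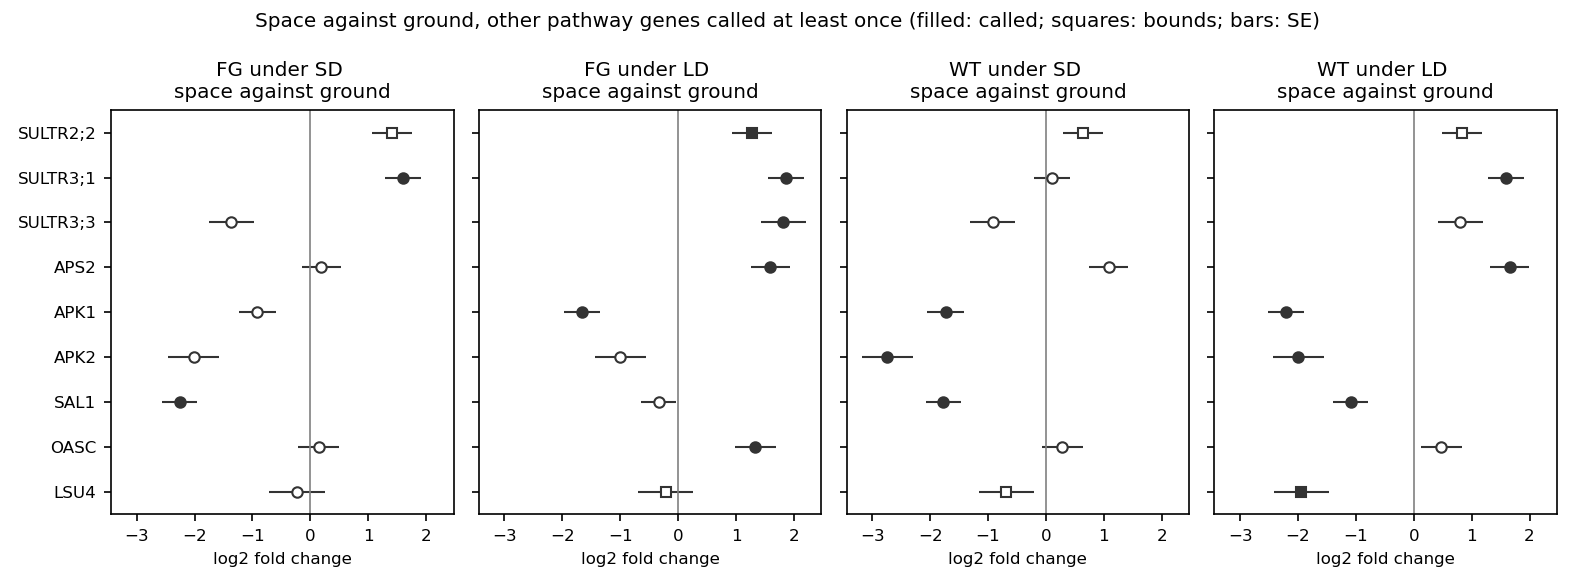
Log2 fold change of space against ground for the 9 other pathway genes called in at least 1 of the 4 settings. Points are estimates (squares for bounds), bars are SE, filled points were called and no point stands where both groups were below detection. APK1, APK2 and SAL1 lie left of 0 in all 4 settings (with spike-in scaling SAL1 moves to 0.13 in FG under LD), APS2 lies right of 0, and SULTR3;3 lies left of 0 under SD and right of it under LD.

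Single ground arrays held several of the extremes. FG-SD-gr replicate 2 had the highest APS1 (10054) and the highest APR1 (406) of the 16 arrays, ranked 15th for APR2, and 6th or 7th for SULTR4;1, APR3, SIR and SERAT2;1. WT-SD-gr replicate 2 had the lowest SULTR4;1, APR1 and APR3 and the second highest APS1 (9492). On FG-SD-gr replicate 2 the GSH1 signal was 18028, against 5277 on FG-SD-gr replicate 1, and the GSH2 signal 6758, against 1231. The mean of the 5 leaf markers on that array was 9.73 (log2), the lowest of all, and 12.6 on replicate 1 of its group. Without that array, SIR in FG under SD stood at 1.08 in place of 0.43 on the log2 scale, and no member was called there.

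The genes whose signals moved most like the mean of the 3 APS reductases over the 16 arrays were a nucleotide-sugar transporter family gene, AT4G32390 (Pearson's r = 0.90), prolyl 4-hydroxylase AT2G17720 (r = 0.89), the enolase gene ENOC (AT2G29560, r = 0.89), the secretion gene ATSAR1B (AT1G56330, r = 0.87) and the apyrase gene ATAPY2 (AT5G18280, r = 0.87). Among the members themselves, the parts of that mean stood at r = 0.97 (APR3), r = 0.86 (APR2) and r = 0.65 (APR1). Outside the mean, SIR stood at r = 0.66, SULTR4;1 and APS1 at r = 0.65 each, APS3 at r = 0.15 and SERAT2;1 at r = -0.47. APR1 thus followed the mean no more closely than SIR did. These coefficients describe arrays that share groups and scaling, and they carry no test.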

How the data were processed

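Leaf RNA was hybridised to 16 ATH1 arrays, 2 for each of 8 groups taken from the sample labels. The authors scanned the arrays with Command Console 4.0, computed signals with MAS 5.0 and scaled every array to a trimmed mean of 500, with 2% of probe sets set aside at either end. The deposited values are log2 of these signals, without the floor that the methods describe, and detection calls stand beside them. The deposited value table of the series is the same within 5e-09. No source used here gives the genome build of the annotation, so no coordinates are printed.

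From these values, log2 signals under that of 75 were raised to it (42.7% of values), 64 control probe sets were set aside, and 14286 probe sets with both arrays of at least 1 group above 75 were fitted with limma 3.58.1 under R 4.3.3 (lmFit, eBayes), with 1 mean per group, 8 residual and 2.75 prior degrees of freedom and 16 contrasts. Calls needed a 2-fold difference or more and an adjusted p (Benjamini-Hochberg) under 0.05. A fold is marked as a bound if 1 of the groups lacks any present call above 75, and is left out if both lack it. An alternative called the methods' rule here follows the methods in asking for an unadjusted p under 0.05, a ratio of means of 2 or more and the same direction in both repeats. The methods base that p on the SD of the ground controls and name no test, so Student's test was chosen in its place, and the rule is not the authors' own formula. It also used signals without the floor of 75 that the methods describe. The members, the 47 further pathway genes and the 23 markers were chosen with earlier results of these data known. All members are named. Fold changes of the further genes are given only for those called in space against ground. The 5 genes most like the APR mean outside the members and the 47 further genes are named by rule. The model was tested on simulated data. Alternatives changed the floor, the filter, the scaling, the weights, the arrays in the fit and the test, or left out 1 array.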

Additional observations from a re-analysis of the deposited data

Results flagged for a closer look

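The interaction test of the space response between daylengths called 1 of 35 other pathway probe sets in FG and 0 of 35 in WT. Over all probe sets tested, 0.84% were called in FG and 0.672% in WT. The 1 gene called was SULTR3;3, in FG only. In FG the log2 fold change of space against ground under SD minus that under LD was -3.18 ± 0.54 SE (adjusted p = 0.0272, limma). Space arrays were lower than ground arrays under SD and higher under LD, on 2 arrays per group. The adjusted p was 0.09 without FG-LD-gr replicate 2, 0.0921 without FG-LD-sp replicate 1, 0.103 without FG-LD-sp replicate 2 and 0.104 without FG-SD-sp replicate 1, and 0.0537 without WT-SD-sp replicate 1 or without WT-SD-sp replicate 2. It was also 0.0825 with no floor, 0.0596 with no filter on low signals and 0.108 with only the arrays compared.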

How the results depend on the processing

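Of the 16 counts of called members, 2 in FG under LD became 1 and 3 in WT under LD became 0 with only the arrays compared in the fit, which leaves 2 residual degrees of freedom. There the counts of SD against LD in space became 0 in FG and 0 in WT. With array weights they became 2 in FG and 2 in WT, with the methods' rule 2 in FG, and with no filter 0 in WT. In WT under SD, spike-in scaling and the methods' rule gave 1, SIR, in place of 0. Leaving out 1 array gave 1 to 3 in FG under LD, 2 to 4 in WT under LD, 0 to 1 for SD against LD in space in FG and in WT, and 0 to 1 for both interactions with daylength. The replicate block changed no count of members (2 in FG under LD, 3 in WT under LD), and 131 and 145 calls over all probe sets in FG under SD came without and with it. The differences between repeats of 2 groups correlated above 0.1 in 14 of 28 pairs of groups and below -0.1 in 8. These correlations ranged from -0.28 to 0.50, so whether the repeat numbers pair samples of some groups cannot be told. With the block SULTR3;1 in FG under SD was no longer called (adjusted p = 0.0549).

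Signs turned only among values that were not called. In WT under LD, SULTR4;1 was -0.032 with quantile normalization and -0.22 with median centring and APR1 was -0.078, -0.11 and, by the methods' rule, -0.055. In WT under SD, spike-in scaling gave APS1 0.10 and APR1 0.15, APR1 was 1.68 with no floor and 0.34 with log2(signal + 32), APR2 was -0.036 with quantile normalization and -0.10 with median centring, and SERAT2;1 was -0.082 with median centring. The interaction of APR1 with daylength in WT was 1.11 with no floor. Leaving out 1 array at a time moved SULTR4;1 between -0.40 and 0.69 in FG under SD, -0.19 and 1.04 in WT under SD and -0.46 and 0.70 in WT under LD, APR1 between -1.37 and 0.52 in FG under LD, -0.98 and 0.53 in WT under SD and -0.87 and 1.32 in WT under LD, APR2 between -0.35 and 0.58 in WT under SD, SIR between -0.22 and 1.08 in FG under SD, and SERAT2;1 between -0.056 and 0.33 in FG under SD and -0.33 and 0.59 in WT under SD. For the interaction with daylength the ranges across 0 were, in WT, -0.31 to 0.92 for SULTR4;1, -1.54 to 0.65 for APR1, -1.96 to 0.23 for APR3 and -1.24 to 0.23 for SIR.

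Spike-in scaling moved the median log2 fold change of all probe sets under LD to 0.49 in FG and 0.66 in WT, and the share of calls that were higher to 91% in FG and 92.3% in WT, against 67.8% and 65.3% with the authors' scaling. Median centring gave 44.9% and 39.8%. With spike-in scaling APR2 in WT under LD stood at 3.58, SIR at 2.45 and SERAT2;1 at -1.41, and APR3 in WT under LD passed (2.39, adjusted p = 0.0341). Levels near the floor, as for APR1, APR3, SULTR1;2 and LSU1, limit what these arrays can show. For APS3, with signals above the floor, the lack of present calls does.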
